A study of Mus musculus with 17 samples.

Results

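The semaphorins, their plexin and neuropilin receptors, and the Eph receptors with their ephrin ligands were followed in skeletal cells sorted from mouse bone. All protein-coding genes named Sema3 to Sema7, Plxna to Plxnd, Nrp1 and Nrp2, Epha and Ephb, and Efna and Efnb were taken, whatever their values. They came to 53 of the 55335 genes counted, of which 21899 were protein coding, and held 20 semaphorins, 9 plexins, 2 neuropilins, 14 Eph receptors and 8 ephrins. RNA of skeletal stromal/stem cells (SSCs) and of osteoprogenitor cells (OPCs) was sequenced in bulk in 17 libraries. Each cell type came from Cxcr4+/+ (WT), Cxcr4+/1013 (+/1013) and Cxcr41013/1013 (1013/1013) mice, with 3 libraries per genotype except for 2 of 1013/1013 SSCs. The 1013 allele is a knock-in that truncates the tail of the chemokine receptor CXCR4 and models WHIM syndrome, and every cell of the mutant mice carried it. By the study's methods the mice were female littermates of 8 to 12 weeks and received no treatment, each library was made from cells pooled from 3 mice, and both populations were gated as CD45-, TER119-, CD31- and CD51+ cells of the bone fraction. SSCs were further gated as Sca-1+ PDGFRα+ and OPCs as Sca-1- cells. Since each library is a sorted mixture, a gate and not a pure cell type, fewer cells of a type and less RNA per cell cannot be told apart in any value below.

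Semaphorins are secreted or membrane-bound ligands named for their ability to turn growing axons away. The secreted class 3 members bind a neuropilin that sits beside an A-type plexin, whereas most membrane semaphorins bind plexins directly, and the plexin carries the signal into the cell by acting on small GTPases and the cytoskeleton. Eph receptors are receptor tyrosine kinases that meet their ephrin ligands on a neighbouring cell, and both sides can signal. In bone, Sema3a, Sema4d and the pairs of Efnb2 with Ephb4 and Efna2 with Epha2 are known from exchanges between osteoclasts and osteoblasts.

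The libraries held 64099849 to 92683497 counts on genes in OPCs and 44217695 to 50509592 in SSCs. Levels are given as CPM, counts per 1000000 counts on genes after TMM scaling of the library sizes. On this scale 3 counts, taken as the floor, equalled 0.0407 to 0.0628 CPM in OPCs and 0.0449 to 0.0575 CPM in SSCs. The sort could be followed in the transcripts, since Ly6a, which encodes Sca-1, and Pdgfra were higher in SSCs of every genotype, with log2 fold changes of 6.80, 8.62 and 7.45 for Ly6a and of 1.85, 1.94 and 2.36 for Pdgfra in WT, +/1013 and 1013/1013. The summed level of 8 osteoblast lineage genes was 101941 to 322106 CPM in OPCs, 9683 to 13577 CPM in WT SSCs and 3933 to 8080 CPM in mutant SSCs. Chondrocyte genes summed to 15546 to 99613 CPM in OPCs, with the most in 1013/1013 OPC replicate 1, and to 3348 to 21172 CPM in SSCs. Schwann and neural genes summed to 125 to 560 CPM in OPCs and 30.9 to 66.2 CPM in SSCs. Several libraries stood apart. The summed level of 8 leukocyte genes was 9477 CPM in WT OPC replicate 3, 7207 CPM in 1013/1013 OPC replicate 2 and 2958 CPM in WT SSC replicate 3, against 37.9 to 874 CPM in the other 14. Genes with at least 1 count numbered 18723 to 21027 in OPCs, 21449 to 22599 in WT SSCs and 15748 to 19227 in mutant SSCs, with the fewest in 1013/1013 SSC replicate 1. The part of these differences in the results below was not tested.

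Ordered by their level per kilobase of exon (CPM divided by the exon length of the gene), the members were led by Sema3b and Efna1 in OPCs and by Sema3c and Efna1 in SSCs. In the 9 OPC libraries the medians were highest for Sema3b, a secreted ligand of both neuropilins, at 33.0 CPM per kilobase (range 17.5 to 45.4), and for Efna1, a ligand of EphA receptors tethered to the membrane by a lipid anchor, at 29.8 (range 23.5 to 42.7). Nrp2 at 20.5, Efnb1 at 18.0, the plexin Plxnb2 at 17.3 and Sema3d at 14.8 followed. In the 8 SSC libraries the order was Sema3c at 27.3 (range 18.9 to 32.6), Efna1 at 26.0 (range 16.9 to 47.4), Nrp1 at 10.1, Plxnb2 at 9.13 and Sema3b at 8.998. Neighbours in either order had overlapping ranges. Sema3c held place 21 in OPCs and place 1 in SSCs, and Nrp1 held place 13 and place 3, whereas Efna1 stood at place 2 in both. On this scale 27 members had a median over 1 in OPCs and 7 had one under 0.1, against 21 and 10 in SSCs. Epha6 and Epha10 were below the filter on low counts in every fit and gave no test.

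**Figure D1:**
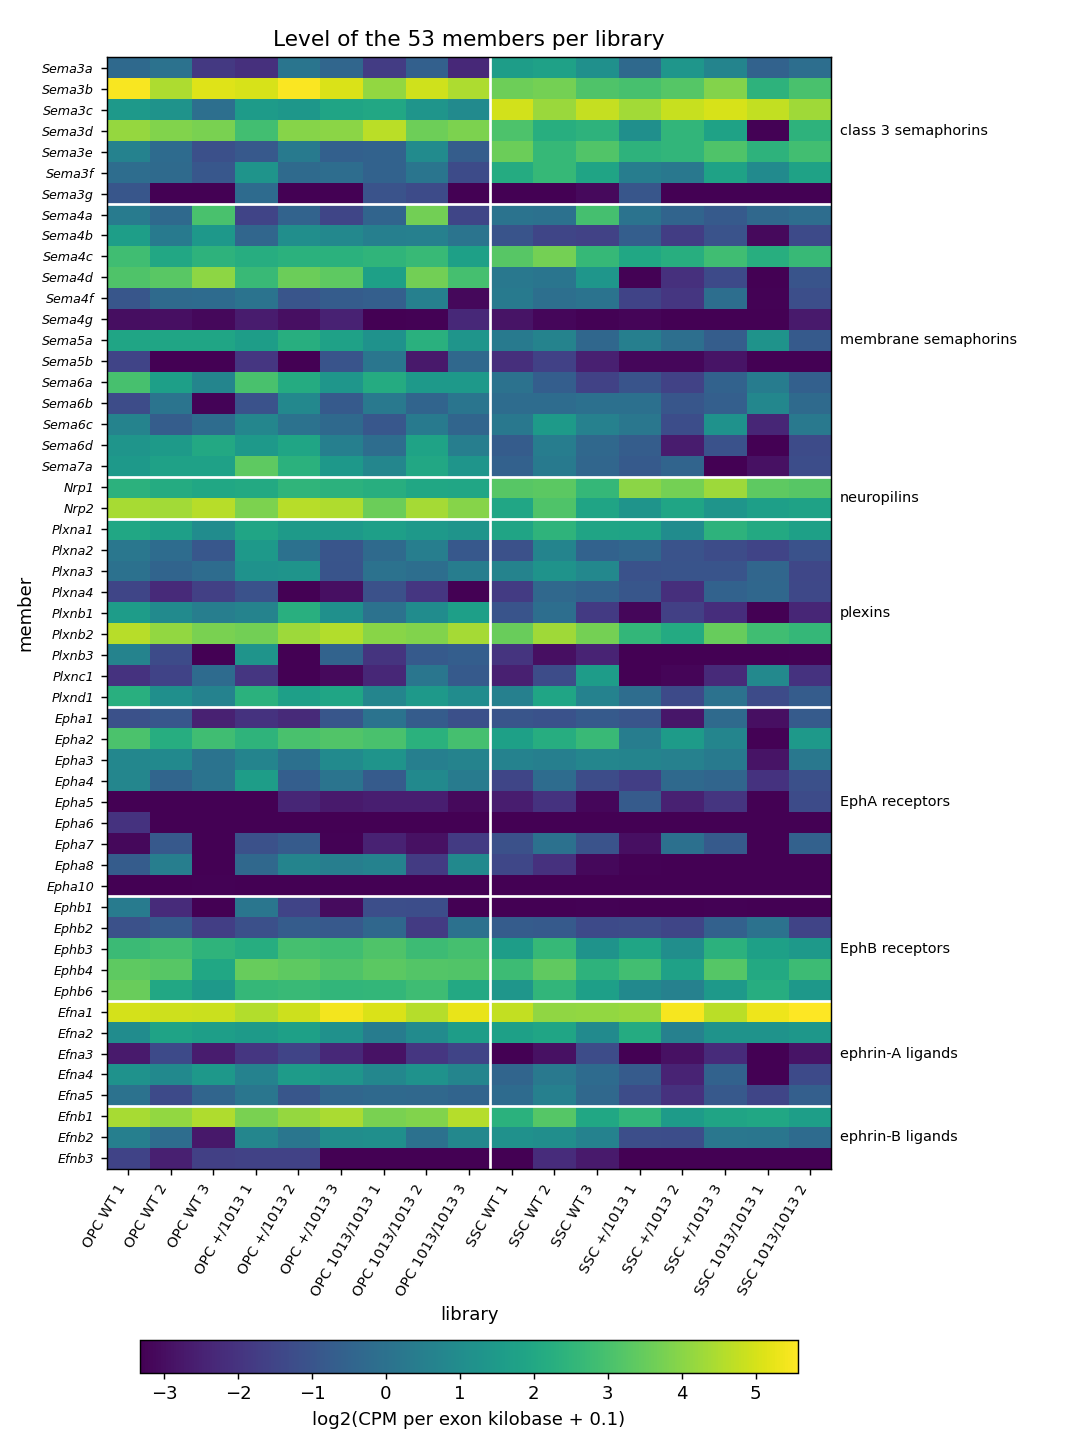
Level of each of the 53 members (rows, by family) in each of the 17 libraries (columns), as log2 of CPM per kilobase of exon plus 0.1. Sema3c and Sema3e are higher in the SSC columns, Nrp2 and Sema3b in the OPC columns, and 1013/1013 SSC replicate 1 has the lowest summed level of EphA receptors, 1.69 CPM against 30.9 to 73.8 CPM in the other 16.

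The comparison of SSCs with OPCs within each genotype addressed how these genes differ between the stem-like and the more committed population. Sema3c, Sema3e and the receptor Nrp1 were higher in SSCs, and Sema3b, the receptor Nrp2 and the ephrin Efnb1 were higher in OPCs, in all 3 genotypes. A member was called when the adjusted p of edgeR's quasi-likelihood test (Benjamini-Hochberg over 20238 genes) was under 0.05 and the change at least 1.5-fold. Of 51 members tested, 10 were called in WT, 4 higher and 6 lower in SSCs, where 11.4% of all genes were called, 5.55% higher and 5.86% lower. In +/1013, 16 were called, 3 higher and 13 lower, against 12.5% of all genes, 6.44% higher and 6.02% lower. In 1013/1013, 11 were called, 3 higher and 8 lower, against 13.1% of all genes, 6.94% higher and 6.12% lower. The median log2 fold change of the members, SSC minus OPC, was -0.25, -1.43 and -1.39 in WT, +/1013 and 1013/1013, beside 0.17, 0 and -0.20 over all genes. Without the 3 leukocyte-rich libraries 5 members were called in WT (Nrp1, Nrp2, Sema3c, Sema3e and Sema6a), 16 in +/1013 and 7 in 1013/1013. The share of all genes called was not computed for fits with libraries left out. Whether such changes in count are particular to the members was therefore not tested. The 1013/1013 count was 15 without SSC replicate 2 and 6 without SSC replicate 1 or without OPC replicate 3.

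Sema3c, a secreted semaphorin that acts through either neuropilin, had the lowest p of the members in WT and in 1013/1013. It was at 19.5, 16.3 and 6.03 CPM in WT OPCs, 20.3, 17.9 and 25.5 in +/1013 OPCs and 27.9, 17.2 and 12.9 in 1013/1013 OPCs. In SSCs it was at 220, 135 and 199 CPM in WT, 142, 203 and 233 in +/1013 and 191 and 142 in 1013/1013. The lowest SSC library lay far above the highest OPC library, and the genotypes overlapped within each cell type. The log2 fold changes were 3.73 ± 0.43 (SE), 3.18 ± 0.42 and 3.10 ± 0.44 in WT, +/1013 and 1013/1013 (edgeR adjusted p = 0.000129, 0.000244 and 0.000546), or 13.2, 9.06 and 8.58-fold.

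Sema3e is the class 3 ligand that binds Plxnd1 without a neuropilin. It was at 13.4, 7.05 and 3.20 CPM in WT OPCs, 4.27, 10.97 and 5.27 in +/1013 OPCs and 5.48, 17.2 and 4.84 in 1013/1013 OPCs. In SSCs it was at 110, 56.1 and 80.8 CPM in WT, 48.7, 52.2 and 80.4 in +/1013 and 48.9 and 67.1 in 1013/1013. The cell types did not overlap, and the highest OPC value was in a library rich in leukocyte transcripts. The log2 fold changes were 3.38 ± 0.61, 3.15 ± 0.61 and 2.66 ± 0.63 (edgeR adjusted p = 0.00315, 0.00395 and 0.0138). Its receptor Plxnd1 moved the other way in the mutants, being lower in SSCs by 2.53 on the log2 scale in +/1013 and by 2.34 in 1013/1013 (edgeR adjusted p = 0.00943 and 0.0314). The +/1013 call of Plxnd1 held without each of the 6 libraries in turn, and the 1013/1013 call held in 1 of 5 such fits, without OPC replicate 1, and was lost without the leukocyte-rich libraries, at log2 -2.09 (adjusted p = 0.059).

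Nrp1 and Nrp2, the neuropilins, were on opposite sides. Nrp1, a co-receptor of Sema3a and of VEGF, was at 50.7, 42.9 and 37.3 CPM in WT OPCs, 40.4, 53.7 and 50.8 in +/1013 OPCs and 45.8, 37.3 and 36.6 in 1013/1013 OPCs. Nrp1 was at 92.7, 96.9 and 58.5 CPM in WT SSCs, 159, 127 and 187 in +/1013 SSCs and 99.8 and 92.5 in 1013/1013 SSCs. Nrp1 was higher in SSCs without overlap, by log2 0.92 ± 0.22, 1.71 ± 0.22 and 1.27 ± 0.24 (edgeR adjusted p = 0.0154, 0.000235 and 0.00394). The WT call was lost without any one of WT OPC replicates 2 and 3 and WT SSC replicates 1 and 2, with adjusted p from 0.0517 to 0.0651 and log2 fold changes from 0.79 to 0.93. Nrp2, the co-receptor of Sema3f, was at 251, 237 and 289 CPM in WT OPCs, 165, 287 and 270 in +/1013 OPCs and 141, 243 and 182 in 1013/1013 OPCs. Nrp2 was at 43.9, 102 and 42.4 CPM in WT SSCs, 27.4, 43.5 and 27.9 in +/1013 SSCs and 37.3 and 40.4 in 1013/1013 SSCs. Every SSC library was below every OPC library, and the log2 fold changes were -2.04 ± 0.35, -2.87 ± 0.37 and -2.28 ± 0.42 (edgeR adjusted p = 0.00238, 0.000184 and 0.0031).

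Sema3b was at 211, 106 and 167 CPM in WT OPCs, 158, 217 and 161 in +/1013 OPCs and 83.7, 145 and 105 in 1013/1013 OPCs. In SSCs it was at 57.5, 62.8 and 41.5 CPM in WT, 37.1, 44.5 and 71.4 in +/1013 and 25.1 and 38.0 in 1013/1013, all below the lowest OPC library. The log2 fold changes were -1.58 ± 0.32, -1.81 and -1.82 ± 0.38 in WT, +/1013 and 1013/1013 (edgeR adjusted p = 0.00641, 0.00252 and 0.00689). Efnb1, a transmembrane ephrin whose loss causes a craniofacial syndrome in people, was at 72.8, 60.1 and 77.8 CPM in WT OPCs, 47.6, 62.1 and 75.4 in +/1013 OPCs and 47.4, 50.2 and 83.2 in 1013/1013 OPCs. Efnb1 was at 17.4, 32.3 and 13.3 CPM in WT SSCs, 19.7, 9.79 and 12.4 in +/1013 SSCs and 13.2 and 10.6 in 1013/1013 SSCs. The highest SSC value again lay below the lowest OPC value. The log2 fold changes of Efnb1 were -1.74 ± 0.36, -2.14 and -2.34 ± 0.43 (edgeR adjusted p = 0.00638, 0.00157 and 0.00305). Without the leukocyte-rich libraries the WT calls of Sema3b and Efnb1 were lost, at log2 -1.40 and -1.42 with adjusted p = 0.0673 and 0.0835. The 1013/1013 call of Sema3b was lost without SSC replicate 1, at log2 -1.55 (adjusted p = 0.0957), and that of Nrp2 when this library and the leukocyte-rich ones were both left out, at log2 -2.00 (adjusted p = 0.067).

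**Figure D2:**
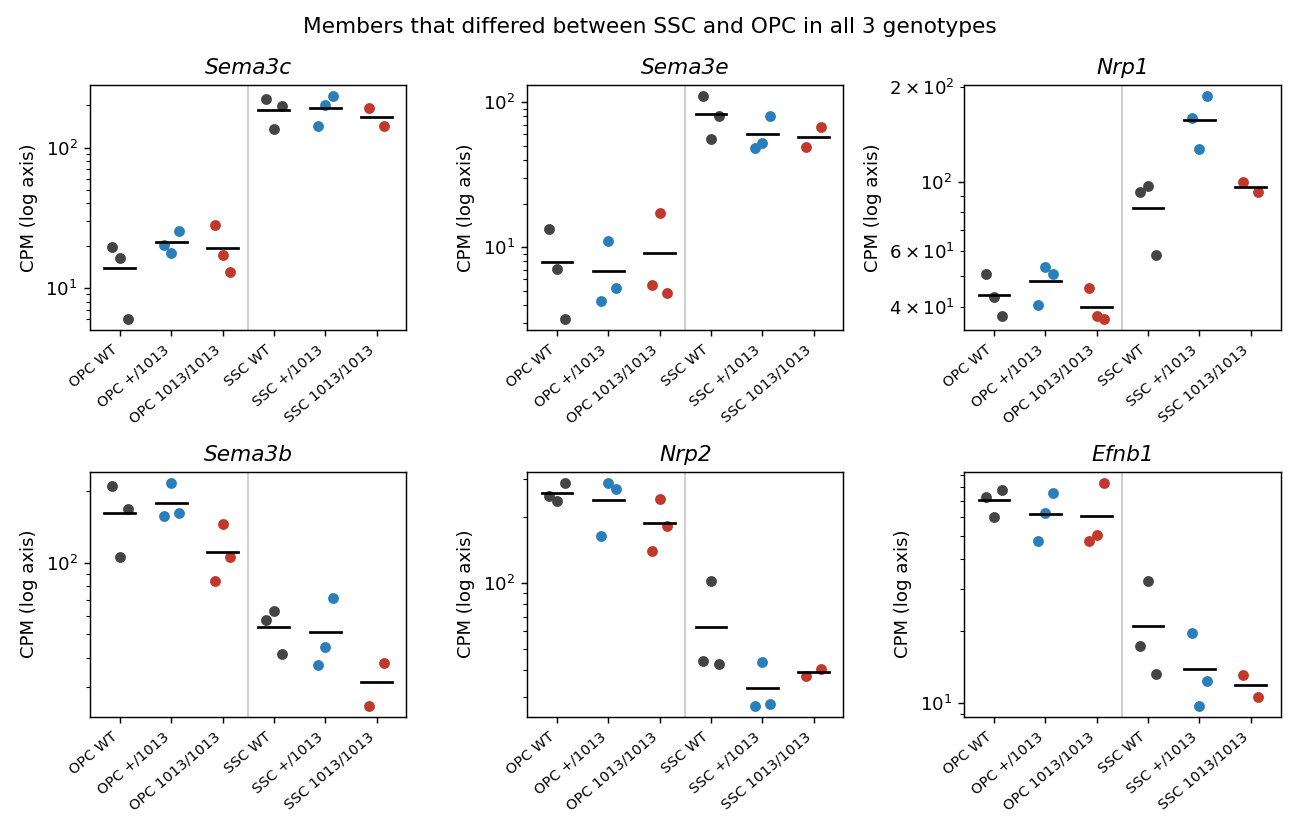
Level in CPM (log axis) of the 6 members called in all 3 comparisons of SSCs with OPCs, by cell type and genotype, with 1 point per library and a bar at the group mean. For Sema3c, for example, the 9 OPC libraries lie between 6.03 and 27.9 CPM and the 8 SSC libraries between 135 and 233 CPM.

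The 6 genes lie in different places of the genome (mm10). The semaphorins that were higher in SSCs are both on the forward strand of chromosome 5, Sema3e at 14025276 to 14256689 and Sema3c at 17574281 to 17730268, in a stretch that also holds Sema3d from 12383385 and Sema3a from 13125414. Sema3b is on chromosome 9 at 107597674 to 107609229 on the reverse strand. Nrp1 is on chromosome 8 at 128358604 to 128503363, Nrp2 on chromosome 1 at 62703285 to 62818695 and Efnb1 on chromosome X at 99136130 to 99148991, all on the forward strand. Promoter windows of 250 bases before to 50 after the start of transcription were taken from RefSeq (GRCm38.p6) for 5 of them, since they are the members that separated the cell types in every genotype, and Sema3b is named only. The windows are chr5:17574566-17574865 (Sema3c), chr5:14025026-14025325 (Sema3e), chr8:128358823-128359122 (Nrp1), chr1:62703067-62703366 (Nrp2) and chrX:99135811-99136110 (Efnb1), all on the forward strand and written 5′ to 3′, with the GC box GGGCGG or its reverse complement in capitals.
Sema3c: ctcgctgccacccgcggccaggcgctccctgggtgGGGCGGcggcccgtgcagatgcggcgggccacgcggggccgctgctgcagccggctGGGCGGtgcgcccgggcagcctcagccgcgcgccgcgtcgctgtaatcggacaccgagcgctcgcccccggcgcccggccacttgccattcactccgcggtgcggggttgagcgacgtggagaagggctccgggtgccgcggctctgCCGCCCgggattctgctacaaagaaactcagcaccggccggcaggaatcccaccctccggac
Sema3e: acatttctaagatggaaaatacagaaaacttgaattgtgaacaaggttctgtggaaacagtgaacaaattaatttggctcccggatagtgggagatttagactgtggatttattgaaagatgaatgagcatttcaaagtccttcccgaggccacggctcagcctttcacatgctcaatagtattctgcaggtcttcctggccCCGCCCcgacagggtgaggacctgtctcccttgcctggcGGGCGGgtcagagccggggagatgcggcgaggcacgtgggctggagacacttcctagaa
Nrp1: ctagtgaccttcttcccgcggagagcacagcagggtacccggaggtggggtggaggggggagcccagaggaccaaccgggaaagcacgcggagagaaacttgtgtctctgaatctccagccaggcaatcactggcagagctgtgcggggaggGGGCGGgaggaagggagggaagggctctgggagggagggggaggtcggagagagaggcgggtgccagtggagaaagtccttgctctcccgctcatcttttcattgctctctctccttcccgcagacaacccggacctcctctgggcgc
Nrp2: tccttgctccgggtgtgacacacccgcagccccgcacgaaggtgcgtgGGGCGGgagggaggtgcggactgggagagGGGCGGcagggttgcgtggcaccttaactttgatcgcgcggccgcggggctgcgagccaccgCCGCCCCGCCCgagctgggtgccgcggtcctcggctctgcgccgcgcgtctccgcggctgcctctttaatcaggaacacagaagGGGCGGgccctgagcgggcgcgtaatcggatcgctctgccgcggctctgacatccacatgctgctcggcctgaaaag
Efnb1: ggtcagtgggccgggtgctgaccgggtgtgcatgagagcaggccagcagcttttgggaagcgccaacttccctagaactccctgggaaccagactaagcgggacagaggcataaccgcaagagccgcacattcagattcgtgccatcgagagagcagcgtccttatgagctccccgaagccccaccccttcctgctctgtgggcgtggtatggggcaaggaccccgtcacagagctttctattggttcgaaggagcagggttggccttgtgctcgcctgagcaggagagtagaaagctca
The GC box was found 3 times for Sema3c, 2 times for Sema3e, 1 time for Nrp1 and 5 times for Nrp2, where 2 of the matches share 1 base, and 0 times for Efnb1. Its letters were in 35.6% of the 32817 windows of all genes on either strand and in 46 of 61 windows of 47 members. Neither TGTGGT, the core of the RUNX motif, nor TATAAA was in these 5 windows on either strand. TGTGGT was in 16.8% of all windows and in 8 of the 61, and TATAAA in 13.6% and in 1. The base composition ranged from 50.7% GC for Sema3e to 75.7% for Sema3c, so that the promoters with higher levels in SSCs had both the lowest and the highest share.

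The other secreted semaphorins differed less evenly. Sema3f, the class 3 ligand that prefers Nrp2, was at 4.18, 3.83 and 2.26 CPM in WT OPCs and 22.5, 32.0 and 18.5 CPM in WT SSCs. It did not overlap and was higher in WT SSCs by log2 2.83 ± 0.62 (edgeR adjusted p = 0.00944), a call that was lost without the leukocyte-rich libraries. In 1013/1013 its log2 fold change was 2.03 with adjusted p = 0.0533, which missed the threshold. Sema3a, whose receptor holds Nrp1 and Plxna1, was at 10.05, 12.8 and 2.49 CPM in WT OPCs and 41.4, 46.1 and 29.3 CPM in WT SSCs, a log2 difference of 2.20 that was not called (edgeR adjusted p = 0.0862). Sema3d, a class 3 member chosen for naming after its values were seen, was at 62.6 to 214 CPM in OPCs and at 17.7 to 72.1 CPM in 7 SSC libraries, but at 0.0367 CPM in 1013/1013 SSC replicate 1.

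Of the 13 membrane semaphorins 3, 4 and 1 were called in WT, +/1013 and 1013/1013, each of them lower in SSCs. Of all genes, 5.86%, 6.02% and 6.12% were called lower, and 1 of 13 is near that share. Sema6a, a transmembrane ligand of A-type plexins, was lower by log2 2.90 in WT (edgeR adjusted p = 0.0131) and by 3.60 in +/1013 (adjusted p = 0.00394). Its WT values of 68.8, 27.4 and 13.6 CPM in OPCs and 7.99, 4.61 and 2.09 CPM in SSCs did not overlap. Sema5a, which carries thrombospondin repeats, was lower by log2 1.73 in WT and by 2.03 in +/1013 (edgeR adjusted p = 0.0461 and 0.021), and Sema4b by log2 2.93 in WT (adjusted p = 0.0314). Sema7a, the semaphorin with a lipid anchor, was lower in +/1013 (edgeR adjusted p = 0.0471). The calls of Sema5a and Sema4b in WT and of Sema7a in +/1013 were lost without the leukocyte-rich libraries. With each library left out in turn they held in 0, 1 and 1 of 6 fits (adjusted p up to 0.148, 0.103 and 0.116), for Sema4b without OPC replicate 2 and for Sema7a without SSC replicate 3. The +/1013 call of Sema5a held in 3 of 6, without OPC replicate 1 or 3 or SSC replicate 1. Sema6a held in 4 of 6 in WT, being lost without SSC replicate 2 or 3 (adjusted p = 0.0534 and 0.052), and in 6 of 6 in +/1013. Sema6a, Sema5a, Sema4b and Sema7a were chosen for naming after their values were seen.

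Sema4d, the ligand of Plxnb1, and Plxnb1 itself were called lower in SSCs of both mutants. Sema4d was at 66.2, 74.5 and 127 CPM in WT OPCs, 49.2, 91.3 and 78.7 in +/1013 OPCs and 24.9, 98.4 and 58.8 in 1013/1013 OPCs. In SSCs Sema4d was at 8.19, 7.56 and 18.7 CPM in WT, 0.0342, 1.03 and 2.31 in +/1013 and 0 and 3.05 in 1013/1013. SSCs lay below OPCs in every genotype, and the edgeR adjusted p was 0.123 in WT, 0.0107 in +/1013 and 0.04 in 1013/1013. Plxnb1 was at 27.8, 17.3 and 12.4 CPM in WT OPCs, 14.3, 45.6 and 20.2 in +/1013 OPCs and 8.89, 18.4 and 30.3 in 1013/1013 OPCs. Plxnb1 was at 3.75, 7.98 and 1.77 CPM in WT SSCs, 0.12, 2.11 and 1.19 in +/1013 SSCs and 0 and 0.912 in 1013/1013 SSCs, and its edgeR adjusted p was 0.239, 0.0261 and 0.0343. The 1013/1013 calls of both genes were lost without the leukocyte-rich libraries, without SSC replicate 1 and without OPC replicate 3, and that of Sema4d also without OPC replicate 2 (adjusted p up to 0.13 with 1 library left out). In +/1013 the call of Sema4d held in 6 of 6 such fits and that of Plxnb1 in 3, being lost without OPC replicate 2 or SSC replicate 1 or 3 (adjusted p up to 0.0801).

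Among the plexins, 0 of 9 were called in WT by edgeR's test or by DESeq2's, and 1 had an unadjusted p under 0.05. In +/1013, 5 were called lower in SSCs, and in 1013/1013, 3 were, where 6.02% and 6.12% of all genes were called lower. Plxnb2, a receptor of class 4 semaphorins, was lower by log2 1.38 in +/1013 and by 1.40 in 1013/1013 (edgeR adjusted p = 0.0222 and 0.0396). With each library left out in turn the +/1013 call of Plxnb2 held in 2 of 6 fits, without OPC replicate 1 and without SSC replicate 3, and the 1013/1013 call in 0 of 5 (adjusted p from 0.0539 to 0.158). Without the leukocyte-rich libraries the 1013/1013 call was also lost, at log2 -1.49 (adjusted p = 0.0605). Plxna3, an A-type partner of neuropilins, was lower by log2 2.10 in +/1013 (edgeR adjusted p = 0.0231), a call that held in 1 of 6 such fits, without OPC replicate 3 (adjusted p up to 0.0881). Plxnb3 was called in +/1013 (edgeR adjusted p = 0.0344), where it had no counts in SSCs and 15.3, 0 and 3.99 CPM in OPCs. The OPC mean of 6.42 CPM was 119-fold the floor of 3 counts per library in SSCs. OPC replicate 2 had no counts either, so the groups overlapped at 0 and the mean rested mostly on replicate 1. The call of Plxnb3 held in 1 of 6 fits with a library left out, without OPC replicate 2 (adjusted p up to 0.0965). Of the Eph receptors only Epha8 was called in edgeR's test, in both mutants and lower in SSCs (adjusted p = 0.015 and 0.0279). In 1013/1013 it was at 6.77, 0.901 and 8.22 CPM in OPCs and had no counts in SSCs, at least 95.6-fold lower. The calls of Epha8 held in 3 of 6 fits in +/1013, those that left out an OPC library, and in 2 of 5 in 1013/1013, those without OPC replicate 1 or 2 (adjusted p up to 0.0625 and 0.159). Plxnb3 and Epha8 were chosen for naming after their values were seen.

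**Figure D3:**
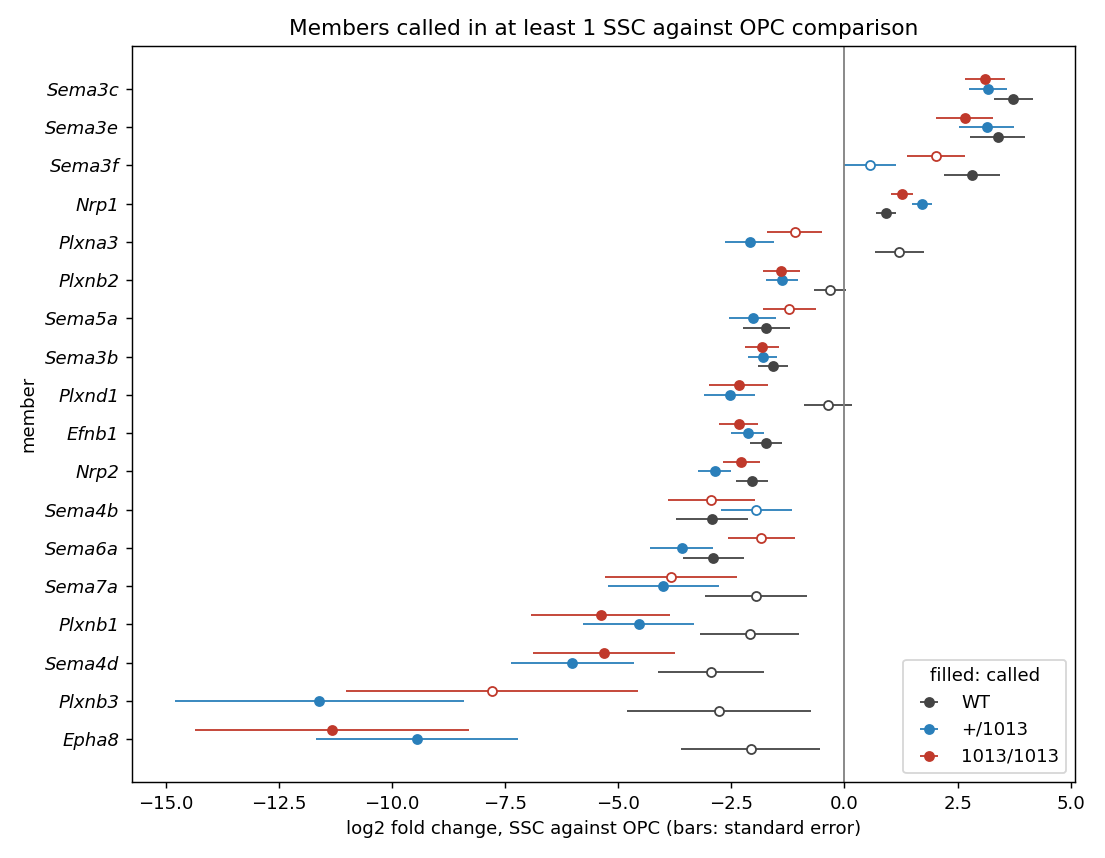
Log2 fold change of SSCs over OPCs, with its standard error, for the 18 members called in at least 1 genotype, with filled points for calls (edgeR adjusted p under 0.05 and at least 1.5-fold). Sema3c and Sema3e lie to the right and Nrp2, Sema3b and Efnb1 to the left in all 3 genotypes. The far left points of Epha8 and Plxnb3 rest on SSC groups with no counts or with 1 count.

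The comparison of genotypes within SSCs addressed how the stem-like population of the mutants differed from that of WT mice. No member was called by edgeR's test in +/1013 or 1013/1013 SSCs against WT, where 0.0736% and 0% of 17659 genes were called. The count at an unadjusted p under 0.05 was 13 and 8 of 49 members (26.5% and 16.3%), beside 17.3% and 18.3% of all genes, the lowest adjusted p was 0.117 and 0.110, and DESeq2 called 8 (Efnb2, Epha8, Nrp1, Plxna3, Plxnb3, Plxnc1, Plxnd1 and Sema5b) and 5 (Epha8, Plxna3, Plxnd1, Sema3a and Sema5b). The share of all genes that DESeq2 called was not computed, so its counts do not set the members apart from other genes. The fitted values leaned one way. The log2 fold change was below 0 for 43 of 49 members in +/1013, or 87.8%, beside 55.2% of all genes, and for 41 of 49 in 1013/1013, or 83.7%, beside 57.8%. Among the members below 0, Efnb3, Epha8, Plxnb3 and Sema5b passed the filter on low counts only through WT libraries. Their sign was thus set in advance, and they also enter the medians and the counts of libraries that follow. The medians were -0.86 and -0.91, beside -0.11 and -0.23 over all genes, and were -0.86 and -0.91 also with members that had no counts in the mutant set at their bound. Mutant libraries lay wholly below WT for 13 members in +/1013, beside 16.2% of all genes, and for 22 in 1013/1013, beside 24.3%. They lay wholly above WT for 1 member in each, Nrp1 and Efna1, beside 15% and 16.4%. Both comparisons use the same 3 WT libraries. Without WT SSC replicate 2 the medians were -0.54 and -0.71, with 37 and 35 members below 0, and without 1013/1013 SSC replicate 2 the 1013/1013 median was -1.80. Mutant SSC libraries also had fewer genes with a count than WT SSCs and a lower sum of the 8 osteoblast lineage genes. Within that sum Col1a1 was at 7523 to 10537 CPM in WT SSCs and 1005 to 2954 CPM in mutant SSCs. Spp1 of the same sum was not lower, at 1477 to 2814 CPM in WT SSCs and 1553 to 4761 CPM in mutant SSCs. The sum of 7 Sca-1-positive fibroblast genes was higher in mutant SSCs, 3293 to 6612 CPM beside 1689 to 2516 CPM. The part of these differences in the members' values was not tested.

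All 9 plexins had a log2 fold change below 0 in both mutants, beside 55.2% and 57.8% of all genes, with medians of -1.68 and -1.38. By edgeR 0 of them were called, and 5 and 4 had an unadjusted p under 0.05, beside 17.3% and 18.3% of all genes. Plxnb3 passed the filter only through WT, so that its sign was set in advance. Plxnc1 was at 0.604, 2.62 and 24.6 CPM in WT SSCs, the last in the leukocyte-rich replicate 3. Plxna3 was at 11.6, 18.0 and 13.1 CPM in WT SSCs, 2.91, 3.12 and 3.11 in +/1013 and 5.26 and 2.16 in 1013/1013. The mutant libraries lay below the WT libraries without overlap, with log2 fold changes of -2.24 ± 0.47 and -1.92 ± 0.53 (edgeR adjusted p = 0.117 and 0.16). Plxnd1, the receptor of Sema3e, was at 10.1, 26.5 and 10.4 CPM in WT, 5.87, 2.18 and 6.76 in +/1013 and 2.25 and 3.70 in 1013/1013. It did not overlap WT either, at log2 -1.68 ± 0.60 and -2.38 ± 0.72 (edgeR adjusted p = 0.224 and 0.173). Plxnb2, the plexin with the highest level per kilobase, was at 87.9, 153 and 101 CPM in WT, 44.4, 33.0 and 85.9 in +/1013 and 55.0 and 45.8 in 1013/1013. One +/1013 library came within a few CPM of the lowest WT library, and the log2 fold changes were -1.09 ± 0.38 and -1.16 ± 0.44 (edgeR adjusted p = 0.219 and 0.23).

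Nrp1 was the member that lay wholly above WT in +/1013 SSCs, at log2 0.91 ± 0.24 (edgeR adjusted p = 0.158), from the library values given above. In 1013/1013 SSCs its 2 libraries at 99.8 and 92.5 CPM overlapped WT, at log2 0.23 (adjusted p = 0.638), a value that was -0.038 without the leukocyte-rich libraries and 1013/1013 SSC replicate 1. Of its ligands, Sema3a was at 41.4, 46.1 and 29.3 CPM in WT, 9.99, 33.8 and 21.2 in +/1013 and 8.14 and 11.5 in 1013/1013. The 1013/1013 libraries lay below every WT library, at log2 -1.98 ± 0.51 (edgeR adjusted p = 0.141), and +/1013 overlapped WT. Sema3f was at 22.5, 32.0 and 18.5 CPM in WT, 6.61, 5.59 and 17.6 in +/1013 and 9.46 and 17.4 in 1013/1013, without overlap and with a log2 fold change of -1.31 ± 0.50 in +/1013 (edgeR adjusted p = 0.247). Sema3b in 1013/1013 SSCs, at 25.1 and 38.0 CPM, was below its WT range of 41.5 to 62.8 CPM, at log2 -0.77 ± 0.34 (adjusted p = 0.282).

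Of the 8 ephrins 7 had a log2 fold change below 0 in each mutant and 1, Efna1, had one above 0. By edgeR 0 were called, with 1 and 1 at an unadjusted p under 0.05, and DESeq2 called Efnb2 in +/1013. Of all genes, 55.2% and 57.8% were below 0, and 17.3% and 18.3% had an unadjusted p under 0.05. Efnb3 had no counts in mutant SSCs and passed the filter only through WT, so that its sign was set in advance. Efna1 was at 49.7, 30.9 and 31.9 CPM in WT SSCs, 33.3, 80.7 and 45.3 in +/1013 and 74.9 and 86.7 in 1013/1013. Its 1013/1013 libraries lay above WT, at log2 1.12 ± 0.38 (edgeR adjusted p = 0.201), and +/1013 overlapped both. Efnb2, the ligand of Ephb4, was at 14.6, 13.8 and 9.97 CPM in WT, 2.29, 2.22 and 7.16 in +/1013 and 6.96 and 5.18 in 1013/1013. Both mutants lay below WT, at log2 -1.74 ± 0.56 and -1.06 (edgeR adjusted p = 0.198 and 0.382). Ephb4 overlapped WT, with 30.9, 47.9 and 24.5 CPM in WT, 33.2, 15.2 and 43.0 in +/1013 and 19.2 and 31.5 in 1013/1013.

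**Figure D4:**
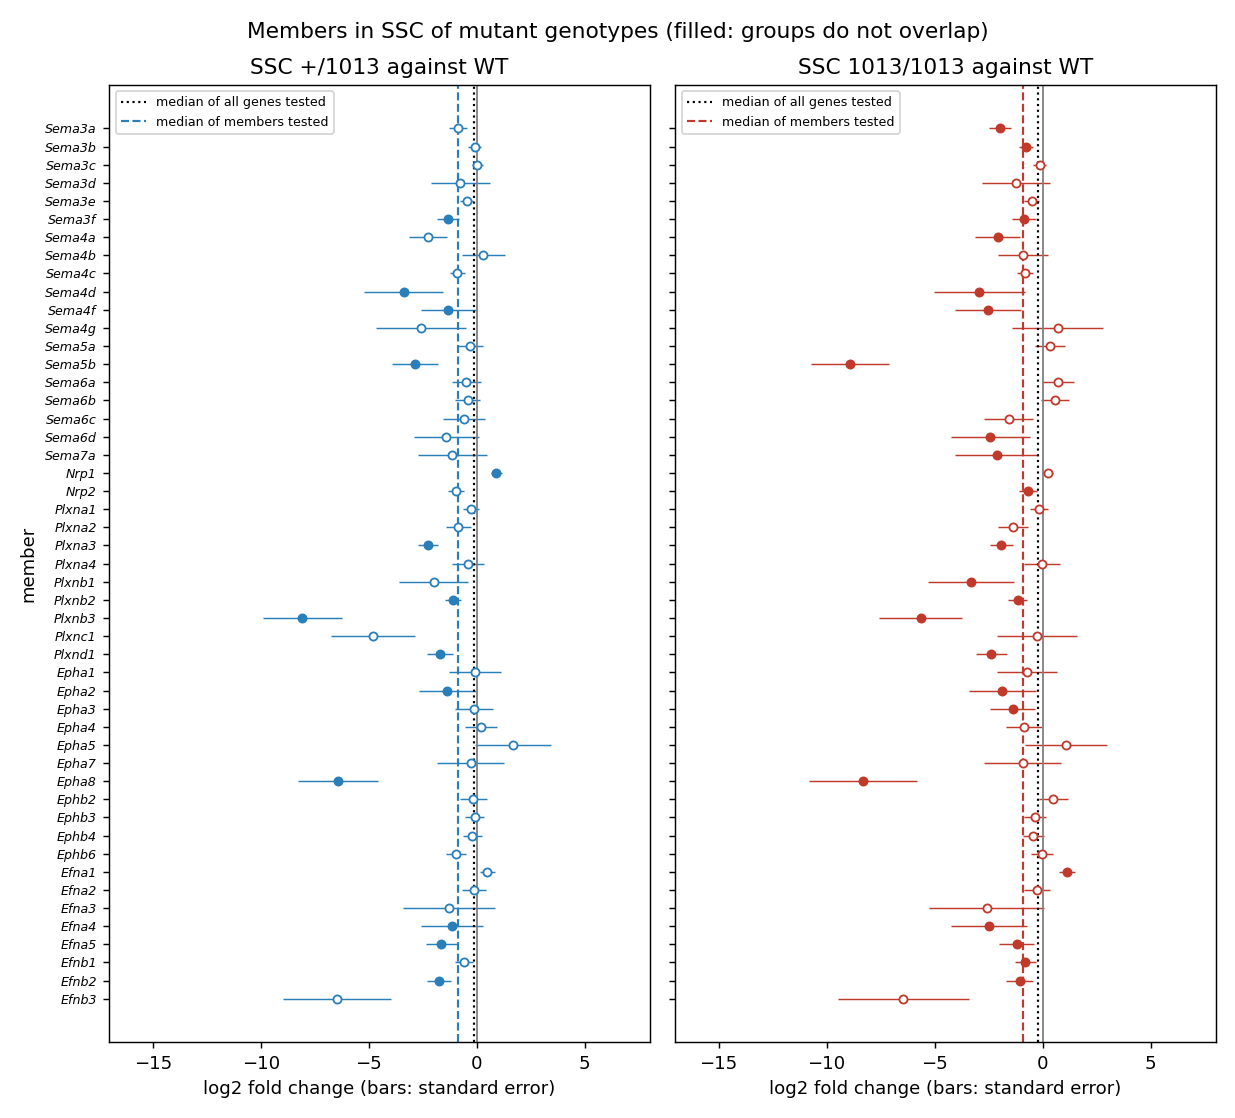
Log2 fold change, with its standard error, of the 49 tested members in +/1013 and 1013/1013 SSCs against WT SSCs, with filled points where the libraries of the 2 genotypes do not overlap and a line at the members' median of -0.86 and -0.91. Plexins lie left of 0 in both panels, and no point passes the adjusted threshold.

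Direct tests were also made between the mutants. Against +/1013 SSCs, 0 members were called by edgeR in 1013/1013 SSCs, where 0% of all genes were, with 2 members (4.08%, beside 5.53% of all genes) at an unadjusted p under 0.05 and 0 called by DESeq2. The libraries of the mutants did not overlap for 4 members, 1 above and 3 below, beside 15.9% of all genes. The tests of whether the genotype effect differs between SSCs and OPCs called 0 members for +/1013, beside 0.084% of all genes, and 0 for 1013/1013, beside 0.153%. At an unadjusted p under 0.05 there were 7 and 4 of 51 members (13.7% and 7.84%), beside 10.6% and 15.01% of all genes, and DESeq2 called 2 (Epha8 and Plxna3) and 2 (Epha8 and Sema5b). For DESeq2 the share of all genes called was not computed here either. Plxna3 had a difference in effect, SSC minus OPC, of log2 -3.31 in +/1013 and -2.32 in 1013/1013 (edgeR adjusted p = 0.201 and 0.241). Its OPC libraries were at 7.14, 5.02 and 6.24 CPM in WT, 17.5, 18.5 and 3.10 in +/1013 and 7.35, 6.46 and 10.1 in 1013/1013.

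In OPCs no member was called in +/1013 or 1013/1013 against WT, or between the mutants, by edgeR or by DESeq2, beside 0%, 0.00617% and 0% of 16207 genes, and 1, 2 and 2 members had an unadjusted p under 0.05, beside 2.04%, 3.38% and 3.17% of all genes. The libraries did not overlap for 2 members in each of the 3 comparisons, beside 5.28%, 7.61% and 7.34% of all genes. The members' median log2 fold changes were 0.14, -0.02 and -0.14. Of members with a mean of at least 1 CPM, Sema4a, a membrane semaphorin found on immune cells, was the one that did not overlap between WT and +/1013 OPCs. It was at 6.41, 3.87 and 42.9 CPM in WT OPCs, 1.37, 3.34 and 1.40 in +/1013 OPCs and 3.36, 67.9 and 1.42 in 1013/1013 OPCs. The log2 fold change in +/1013 was -3.13 ± 1.498 (edgeR adjusted p = 1), and -1.34 without WT OPC replicate 3. The high libraries, 42.9 and 67.9 CPM in OPCs and 41.5 CPM in WT SSC replicate 3, were the 3 with the highest leukocyte sums, and the other 14 libraries had 1.37 to 6.41 CPM of Sema4a. Plxnc1, a receptor of Sema7a chosen here after its values were seen, was highest in WT SSC replicate 3 at 24.6 CPM, then in 1013/1013 SSC replicate 1 at 14.2 CPM, 1013/1013 OPC replicate 2 at 8.55 CPM and WT OPC replicate 3 at 6.43 CPM, which are the 4 libraries with the highest leukocyte sums.

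**Figure D5:**
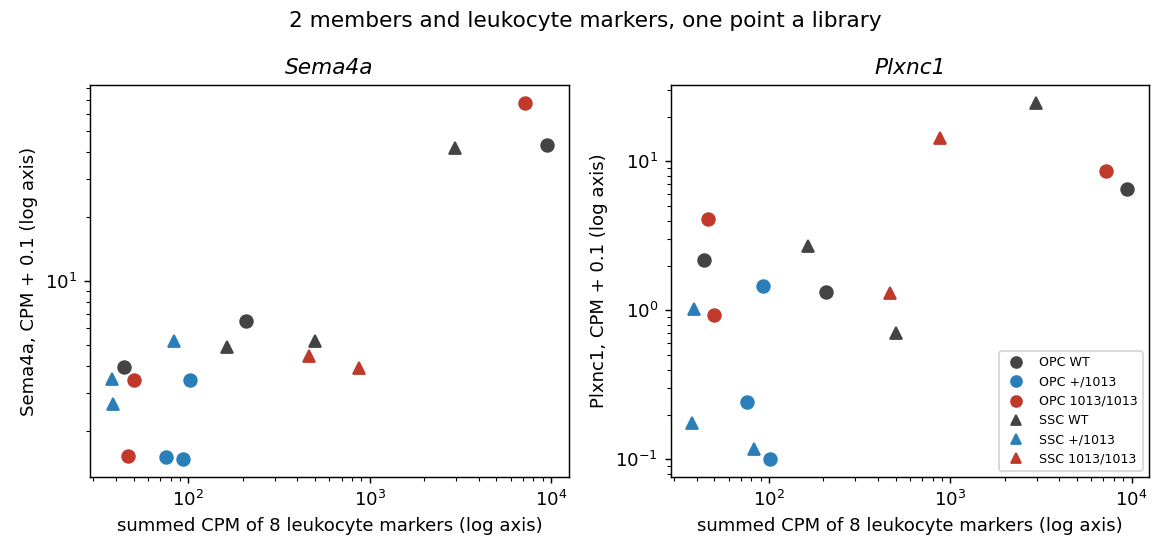
CPM plus 0.1 of Sema4a and Plxnc1 against the summed CPM of 8 leukocyte genes in each of the 17 libraries (both axes log). The 3 libraries with sums of 2958 to 9477 CPM hold the 3 highest Sema4a values, 41.5 to 67.9 CPM.

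Of the pairs known from bone, Sema3a, Nrp1, Sema4d and Plxnb1 were described above. Plxna1, the plexin of the Sema3a receptor, was at 17.3 to 35.0 CPM in OPCs and 17.4 to 49.1 CPM in SSCs, with a log2 difference of 0.49 in WT (edgeR adjusted p = 0.382), and 10.7% of its exon bases also belong to an antisense gene that this unstranded protocol cannot separate. Ephb4 was at 18.0 to 52.1 CPM in OPCs and 15.2 to 47.9 CPM in SSCs, a log2 difference of -0.08 in WT (adjusted p = 0.933). Its partner Efnb2 was at 0.335 to 14.2 CPM in OPCs and 2.22 to 14.6 CPM in SSCs. Epha2 was at 21.5 to 41.3 CPM in OPCs, 15.1, 21.4 and 30.2 CPM in WT SSCs, 5.94, 13.3 and 7.23 CPM in +/1013 SSCs and 0.0183 and 12.3 CPM in 1013/1013 SSCs. The mutant SSCs lay below WT for Epha2, at log2 -1.88 in 1013/1013 (edgeR adjusted p = 0.521), and -0.88 without 1013/1013 SSC replicate 1. Its ligand Efna2 was at 2.63 to 7.47 CPM in OPCs and 2.97 to 9.33 CPM in SSCs, with a log2 difference of 0.04 in WT (adjusted p = 0.976). In SSCs against WT, Sema4d was at log2 -2.94 and Plxnb1 at -3.31 in 1013/1013 (edgeR adjusted p = 0.461 and 0.389), with no counts in replicate 1 and values of -1.94 and -2.31 without it.

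Genes that work with the members were counted from a list of 47 tested partners and effectors. In SSCs against OPCs 7 were higher and 3 lower in WT, 7 and 6 in +/1013 and 6 and 2 in 1013/1013, where 11.4%, 12.5% and 13.1% of all genes were called. Dpysl2 and Dpysl3, collapsin response mediators that pass semaphorin signals to microtubules, were higher in SSCs in all 3 genotypes, with log2 fold changes of 1.93, 1.21 and 1.77 and of 1.12, 1.32 and 1.65. Farp2, an exchange factor that binds A-type plexins, was lower by log2 3.35, 2.83 and 2.49, and Ptk7, a pseudokinase co-receptor of plexins, by 1.55, 3.56 and 4.04 (edgeR adjusted p up to 0.0233 for all 4 genes). These 4 genes were chosen for naming after their values were seen. Dpysl5 and Crmp1 of the same list were not called, with log2 fold changes of -4.23, -11.0 and -10.5 and of 1.79, 8.98 and 0.96. In mutant against WT SSCs 0 of the 47 were called by edgeR, with 9 and 11 at an unadjusted p under 0.05, beside 17.3% and 18.3% of all genes, and medians of -0.40 and -0.39.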

How the data were processed

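RNA of sorted SSCs and OPCs was converted to full-length, unstranded cDNA (SMART-Seq v4) and sequenced in pairs. The authors aligned reads to mm10 with STAR after FastQC and deposited raw counts per Ensembl gene from HTSeq, with 1 file per library; versions and the annotation release are not given in the sources used here. The deposited counts were used as they are.

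Gene names were taken by stable identifier from GENCODE M21 (mm10), which matched 55154 of 55335 identifiers and left 181 unmatched. Groups follow the genotype and cell type in the sample labels. In R 4.3.3, genes were filtered (filterByExpr, at least 10 counts), scaled by TMM and fitted with edgeR 4.0.16 (limma 3.58.1), with all 17 libraries for the cell type comparison and its difference between genotypes, and 9 OPC or 8 SSC libraries for genotypes. Adjusted p-values are Benjamini-Hochberg over all genes tested. Levels are CPM on TMM-scaled library sizes. DESeq2 1.42.0 was an alternative, and others were another scaling, other filters, a block for the replicate number, other sets of libraries in the fit and each library left out. The fits were tested on simulated data.

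The genes named by rule are those called in all 3 comparisons of SSCs with OPCs, those called between genotypes (0 of them), up to 6 members per comparison with WT that did not overlap, had the lowest p and a mean of at least 1 CPM, and the pairs known from bone. Genes described beyond this rule were chosen after their values were seen. The members and gene lists were chosen with earlier results of these data known. Same-numbered libraries deviated together (r over 0.1) in 2 of 8 pairs between cell types and 3 of 16 between genotypes. Differently numbered libraries did so in 1 of 16 and 3 of 32 pairs. So few pairs cannot settle whether the numbers pair the samples, and the labels do not say. The main fits did not pair them, and counts with a block for the replicate number are given below. Each library is a pool of 3 mice, and p-values measure the spread between such pools.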

Additional observations from a re-analysis of the deposited data

How the results depend on the processing

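The 6 members called in all 3 comparisons of SSCs with OPCs kept their direction in these comparisons under every alternative. There were 15 alternatives in WT, 15 in +/1013 and 14 in 1013/1013, or 44 pairs of comparison and alternative per gene. The call held in 44 of these pairs for Sema3c, 43 for Nrp2, 42 for Sema3e, 41 for Efnb1, 39 for Sema3b and 38 for Nrp1. It was least stable for Nrp1 in WT, at 10 of 15, and for Sema3b in 1013/1013, at 11 of 14. The share of all genes called was not computed for the alternatives, so the counts of calls below do not set the members apart from other genes. For SSCs against OPCs in 1013/1013, 23 members were called by DESeq2, 18 by edgeR with legacy = FALSE, 3 with a replicate block, 4 with only the groups compared in the fit, 7 without the leukocyte-rich libraries and 6 when 1013/1013 SSC replicate 1 was left out as well (both chosen after seeing the data). For WT the count was 16 with only the groups compared, 8 with the replicate block, and 5 and 6 without those libraries. Genotype counts of 0 became 8 and 5 with DESeq2 in +/1013 and 1013/1013 SSCs and 2 and 2 for the differences between cell types, and stayed at 0 with the replicate block. With at least 10 counts in every library, 30 members were tested in SSCs, 27 and 24 of them had a log2 fold change below 0 in +/1013 and 1013/1013, and the medians were -0.52 and -0.77. The share of all genes below 0 was not computed with this filter. This filter left Plxnb3, Epha8, Sema4d, Plxnb1 and Sema7a out of the cell type calls in +/1013. Leaving out each library gave 7 to 8 calls in WT, 10 to 13 in +/1013 and 6 to 15 in 1013/1013 for SSCs against OPCs, 0 to 8 for 1013/1013 against WT SSCs, 0 to 5 for 1013/1013 against +/1013 SSCs, 0 to 7 for the 1013/1013 difference between cell types, and 0 in the other genotype comparisons. The 8, 5 and 7 came without 1013/1013 SSC replicate 2, where the lone library, replicate 1 with the fewest genes, is assumed to vary like the other groups. Members below 0 ranged from 37 to 43 and from 35 to 42, with medians of -0.88 to -0.54 and -1.80 to -0.71. The sign turned for Nrp1 in 1013/1013 SSCs (-0.038 without the leukocyte-rich libraries and 1013/1013 SSC replicate 1) and, over single libraries left out, for Efna2 (-0.18 to 0.29) and Ephb4 (-0.39 to 0.16) in SSCs against OPCs in WT and for Plxna1 in 1013/1013 SSCs (-0.39 to 0.055). The cause of these changes was not tested. With 2 libraries of 1013/1013 SSCs, a member with no or few counts in a group gives no usable fold change.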

Other observations

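Slit, netrin and repulsive guidance genes, another class of guidance cues, were counted from a list of 23 tested genes. In SSCs against OPCs 2 were higher and 2 lower in WT, 1 and 6 in +/1013, and 2 and 6 in 1013/1013 (edgeR adjusted p under 0.05 and at least 1.5-fold), where 11.4%, 12.5% and 13.1% of all genes were called. Ntn1, which encodes the secreted cue netrin-1, was higher in SSCs by log2 3.66 ± 0.68, 2.24 ± 0.64 and 3.10 ± 0.70 in WT, +/1013 and 1013/1013 (edgeR adjusted p = 0.00365, 0.0343 and 0.0106). Slit2, a ligand of Robo receptors, had log2 fold changes of -2.11 ± 0.51, -4.21 ± 0.56 and -3.92 ± 0.66 (adjusted p = 0.0163, 0.000259 and 0.00174), and Unc5c, a netrin receptor, of -4.18, -4.92 and -7.33. In mutant SSCs against WT, 0 of 21 tested were called by edgeR, and 5 and 4 had an unadjusted p under 0.05, beside 17.3% and 18.3% of all genes. These genes were chosen for naming after their values were seen.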
